A study of Mus musculus with 6 samples.

Results

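The collagen chain genes are the 44 of 32973 rows of the deposited expression table whose symbol is Col, a number, a and a number. The rows were picked by name, but the family was chosen for study with earlier results of these data known. None of the 44 was among the rows listed by Ensembl identifier only. The table holds 6 RNA-seq libraries of primary muscle stem cells from mouse skeletal muscle, the Pax7-expressing cells that repair muscle. The Med23KO libraries (replicates 1 to 3) came from Med23flox/flox::Pax7CreERT2 cells, in which a tamoxifen-inducible Cre recombinase is driven from the Pax7 gene. The Ctrl libraries (replicates 1 to 3) came from Med23flox/flox cells, so that both groups carried the loxP-flanked Med23 alleles and the Med23KO group alone carried Cre. Cells of both groups were sorted by flow cytometry and kept for 3 days in F10 medium with 20% fetal bovine serum and 5 ng/ml basic fibroblast growth factor, on dishes coated with type I collagen. The labels give no tamoxifen dose, no age and no other treatment. Cre itself and Med23 loss cannot be told apart as sources of a difference. The labels do not state that each library had its own animal or culture, and the p-values therefore measure library-to-library spread, part of which may be technical.

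Collagens are secreted or membrane-bound matrix proteins. Chains wind around each other in groups into a triple helix, which needs glycine at regular steps along the chain. Fibrillar collagens build the fibres of connective tissue, and network collagens such as type IV build the sheet of the basement membrane. FACITs (fibril-associated collagens with interrupted triple helices) sit on fibrils, type VI forms beaded filaments, transmembrane collagens are anchored in the cell surface, and multiplexins are basement membrane proteoglycans. In muscle, stem cells lie between the fibre and its basement membrane, and in mouse types V and VI are known to act on them as parts of that niche.

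The glycine repeat is printed first, since it is what the members share beyond the name. In the longest coding sequence of each gene in GENCODE vM21 (mm10), glycine codons (GGN) that recur 3 codons apart were counted as unbroken runs. The first 10 triplets of the longest run are shown for 3 genes whose level differed between the groups, with the glycine codons in capitals.
Col25a1: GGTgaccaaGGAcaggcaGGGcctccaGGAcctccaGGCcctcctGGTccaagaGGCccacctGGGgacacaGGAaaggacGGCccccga
Col8a2: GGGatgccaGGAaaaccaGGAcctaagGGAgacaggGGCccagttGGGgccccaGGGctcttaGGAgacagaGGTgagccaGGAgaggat
Col18a1: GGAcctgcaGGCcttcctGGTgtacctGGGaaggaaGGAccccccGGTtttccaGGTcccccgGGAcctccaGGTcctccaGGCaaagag
The longest unbroken run separated the fibrillar class from every other. Its 11 members had runs of 216 to 344 triplets, with 344 in Col3a1, while runs reached 113 triplets in FACITs, 87 in the beaded filament class and 66 in network collagens. Col12a1 stood at the other end for the share of its codons, with 8.23% of 3064 codons in runs of at least 5 triplets, against 73.2% of 1463 codons in Col3a1. In Col18a1 the share was 30.5% and the longest run 30 triplets, the same run length as in the other multiplexin, Col15a1.

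**Figure D1:**
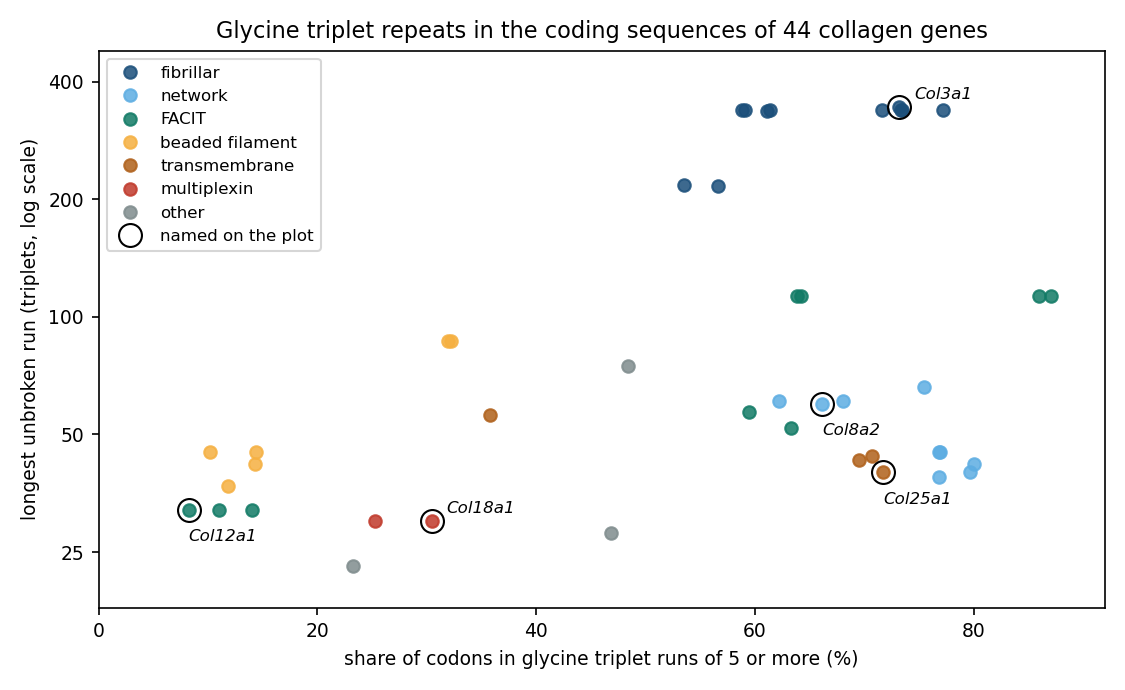
Glycine triplet repeats in the coding sequences of the 44 collagen genes: the x axis is the percentage of codons in runs of at least 5 triplets, the y axis (log scale) the longest unbroken run in triplets, and colours are classes. Fibrillar genes lie at 216 triplets or more, and Col12a1, Col18a1, Col25a1 and Col8a2 lie at 60 or fewer.

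Levels are in FPKM, which divide a gene's fragments by its transcript length and by the size of the library, so that genes can be set beside each other. Read depth is unknown. Med23, the Mediator subunit gene targeted in the knockout, had 5.10, 5.86 and 4.23 FPKM in Med23KO replicates 1, 2 and 3, against 10.4, 11.7 and 10.2 FPKM in the Ctrl replicates (log2 fold change -0.96, limma adjusted p = 0.0197), and this call was lost in 5 of the 6 fits that left out a library. The markers Pax7, Myf5 and Myod1 were present in every library, at 32.4 FPKM or more. Of 7 stem cell and myoblast markers tested, 0 were called by limma. Itga7 averaged 58.1 FPKM in Med23KO and 98.5 FPKM in Ctrl, without overlap (limma adjusted p = 0.0515). Cdh15 averaged 32.0 FPKM in Med23KO and 18.2 FPKM in Ctrl, with overlap (limma adjusted p = 0.168). The authors' deposited table called Itga7 lower and Cdh15 and Des higher. Of 10 markers of fibro-adipogenic progenitors and fibroblasts, collagen-rich cells of muscle that sorting may carry over, 6 passed the filter on low values and 0 were called (the lowest limma adjusted p was 0.0764, for Dcn). Their summed level was 26.8 to 39.8 FPKM in Med23KO libraries and 16.8 to 26.2 FPKM in Ctrl libraries, all 6 tested markers had a positive log2 fold change, and Pi16, Dpt, Clec3b and Tcf21 stayed under 1 FPKM in every library. The authors' deposited table called Pdgfra, Ly6a and Dcn higher (Cuffdiff q = 0.00189, 0.00392 and 0.0053), beside 8.34% of all tested genes. It did not call Lum, Cd34 or Mfap5. Of 5 genes of differentiating muscle with a row, 3 rose (Actc1, Tnnc1 and Mybpc1), beside 1.49% of all tested genes. The summed level of the 5 was 165 to 216 FPKM in Med23KO libraries and 36.6 to 85.6 FPKM in Ctrl libraries. Of 3 tested genes from a list for tenocytes, Scx and Egr1 were called lower, beside 1.42% of all tested genes. Mkx was not called (mean 3.85 FPKM in Med23KO and 3.32 FPKM in Ctrl). Whether these genes mark tenocytes in these cells was not tested. The summed level of the 4 listed was 29.7 to 34.4 FPKM in Med23KO libraries and 63.0 to 98.1 FPKM in Ctrl libraries, with Tnmd under 1 FPKM throughout. Within that sum Egr1 averaged 5.38 FPKM in Med23KO and 39.3 FPKM in Ctrl, and Scx 22.5 FPKM in Med23KO and 40.8 FPKM in Ctrl. Over the 6 fits that left out a library, the call was lost in 4 for Actc1, 3 for Tnnc1, 5 for Mybpc1, 4 for Scx and 2 for Egr1. The part of these marker lists in the collagen values was not tested. In such bulk samples, more cells of a type and more RNA per cell cannot be told apart.

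Col12a1, Col25a1 and Col8a2 rose in Med23KO cells and Col18a1 fell, while none of the tested fibrillar or type IV chains passed in the main fit. That fit took genotype as its single factor. With the replicate number added as a factor, Col3a1, Col5a2, Col24a1, Col4a1, Col6a2 and Col26a1 were also higher (limma adjusted p 0.00365 to 0.0467). With that factor 1180 of all tested genes were higher, against 184 in the main fit. Of the 44 genes, 22 averaged 1 FPKM or more across the 6 libraries. These were tested among 12336 such genes, and all log2 fold changes are on the log2(FPKM + 1) scale, which understates those of low genes. A call is a limma adjusted p under 0.05, adjusted over all tested genes. The 3 rises are 13.6% of the 22 tested members, beside 1.49% of all tested genes, and the single fall is 4.55%, beside 1.42% (2.91% of all tested genes in either direction). The 22 members had a median log2 fold change of 0.33, and 18 were above 0, while all tested genes had a median of -0.03. The filter lets a member pass through its level in one group: Col8a2, Col24a1 and Col15a1 had a Ctrl mean under 1 FPKM. The median and the counts therefore describe the tested members, not the 44. Because the family was chosen with earlier results of these data known, its shares beside those of all tested genes are descriptions only.

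**Figure D2:**
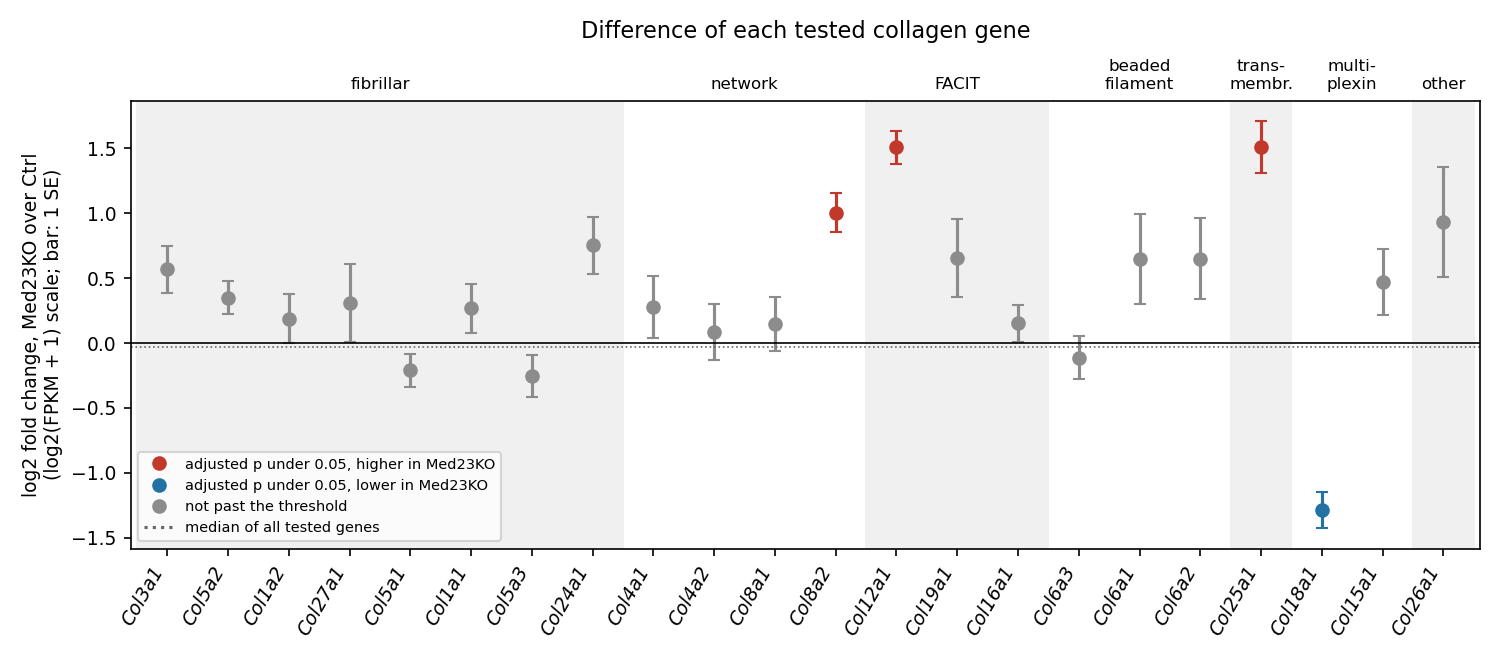
Log2 fold change of Med23KO over Ctrl for the 22 tested collagen genes by class, on the log2(FPKM + 1) scale; bars are 1 standard error and colours mark calls. Col12a1, Col25a1 and Col8a2 are past the threshold above 0 and Col18a1 below it, and the dotted line is the median of all 12336 tested genes, -0.03.

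Col12a1 encodes the chain of type XII collagen, a FACIT that binds type I collagen fibrils and whose loss causes a myopathy in people and mice (ENSMUSG00000032332.17, mm10 chromosome 9, positions 79598991 to 79718831, minus strand). Its levels were 24.3, 21.4 and 20.9 FPKM in Med23KO replicates 1, 2 and 3, against 6.05, 7.82 and 7.65 FPKM in Ctrl replicates 1, 2 and 3. The groups were far apart, with the lowest Med23KO library above the highest Ctrl library. The mean was 22.2 ± 1.83 FPKM in Med23KO and 7.17 ± 0.974 FPKM in Ctrl (SD, n = 3 each), 3.09 times as high, and the difference passed the test (log2 fold change 1.51 with an SE of 0.126, limma adjusted p = 0.00525). This call held in all 6 fits that left out a library, with a highest adjusted p of 0.0439. For each of the 4 called genes the two-sided exact permutation p was 0.1, which is the lowest p possible with 3 libraries a group.

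The other FACIT genes were lower in level, and of these Col19a1 and Col16a1 were tested and did not pass. Col19a1, a FACIT gene of embryonic muscle and of smooth muscle, had 5.76, 6.36 and 2.69 FPKM in Med23KO libraries, against 3.88, 2.17 and 2.06 FPKM in Ctrl libraries, and the groups overlapped (limma adjusted p = 0.285). Col16a1 averaged 1.94 ± 0.291 FPKM in Med23KO and 1.64 ± 0.159 FPKM in Ctrl (SD, n = 3 each). Col9a3, a chain of cartilage type IX collagen, lay just outside the filter with a mean of 0.707 FPKM, while Col24a1 lay just inside with 1.17 FPKM. Col9a3 had 1.18, 1.47 and 0.745 FPKM in Med23KO libraries and 0.498, 0.188 and 0.165 FPKM in Ctrl libraries. It was called higher in the authors' deposited table (q = 0.00189), and 234 bases of its exons overlap the opposite-strand gene Tcfl5, whose reads cannot be told apart where strand was not used in counting.

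Col25a1, a transmembrane collagen gene that developing mouse muscle needs for innervation by motor axons, also rose (ENSMUSG00000058897.17, chromosome 3, positions 130131501 to 130599877, plus strand). Its levels were 12.9, 11.1 and 7.27 FPKM in Med23KO replicates 1, 2 and 3, against 2.55, 3.30 and 2.96 FPKM in the Ctrl replicates. Each Med23KO library was above each Ctrl library, and Med23KO replicate 3 was the nearest to them. The mean was 10.4 ± 2.87 FPKM in Med23KO and 2.93 ± 0.376 FPKM in Ctrl (SD, n = 3 each; log2 fold change 1.51 with an SE of 0.201, limma adjusted p = 0.0184). The call was lost in 5 of the 6 fits that left out a library, all but that without Med23KO replicate 3, with adjusted p-values up to 0.117 and a log2 fold change of at least 1.35. The other transmembrane collagens were under the filter: Col13a1, which acts at the neuromuscular junction, averaged 0.562 ± 0.257 FPKM in Med23KO and 0.643 ± 0.225 FPKM in Ctrl (SD, n = 3 each), and Col17a1 and Col23a1 stayed under 0.15 FPKM in every library.

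Col8a2 rose at a low level. It encodes a short network-forming chain of type VIII collagen, best known from the membrane under the corneal endothelium (ENSMUSG00000056174.8, chromosome 4, positions 126286793 to 126314330, plus strand). Its levels were 1.94, 2.41 and 2.28 FPKM in Med23KO libraries, against 0.443, 0.689 and 0.668 FPKM in Ctrl libraries, without overlap. The log2 fold change was 1.01 with an SE of 0.148 (limma adjusted p = 0.0215), and it was not called in 5 of the 6 fits that left out a library, where the adjusted p reached 0.138. Its partner chain gene Col8a1 was the more abundant, at 18.4, 15.1 and 11.5 FPKM in Med23KO libraries and 16.8, 13.2 and 10.4 FPKM in Ctrl libraries, and the groups overlapped (log2 fold change 0.15, limma adjusted p = 0.767). The ratio of Col8a2 to Col8a1 was 0.106 to 0.198 in Med23KO libraries and 0.0263 to 0.0642 in Ctrl libraries.

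Col18a1 was the single tested member called lower. It encodes type XVIII collagen, a heparan sulphate proteoglycan of basement membranes whose end fragment is endostatin (ENSMUSG00000001435.15, chromosome 10, positions 77052178 to 77166548, minus strand). Its levels were 32.4, 30.4 and 35.2 FPKM in Med23KO replicates 1, 2 and 3, against 72.0, 98.9 and 74.8 FPKM in Ctrl replicates 1, 2 and 3. The highest Med23KO library was below the lowest Ctrl library. The mean was 32.7 ± 2.46 FPKM in Med23KO, 39.9% of the 81.9 ± 14.8 FPKM in Ctrl (SD, n = 3 each; log2 fold change -1.29 with an SE of 0.138, limma adjusted p = 0.0105). The call was lost without Med23KO replicate 2 (adjusted p = 0.0792, log2 fold change -1.24). Col15a1, the other multiplexin and a basement membrane gene of muscle and capillaries, had 2.52, 1.59 and 0.789 FPKM in Med23KO libraries, against 0.905, 0.995 and 0.611 FPKM in Ctrl libraries. The Col15a1 groups overlapped (log2 fold change 0.47, limma adjusted p = 0.365).

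**Figure D3:**
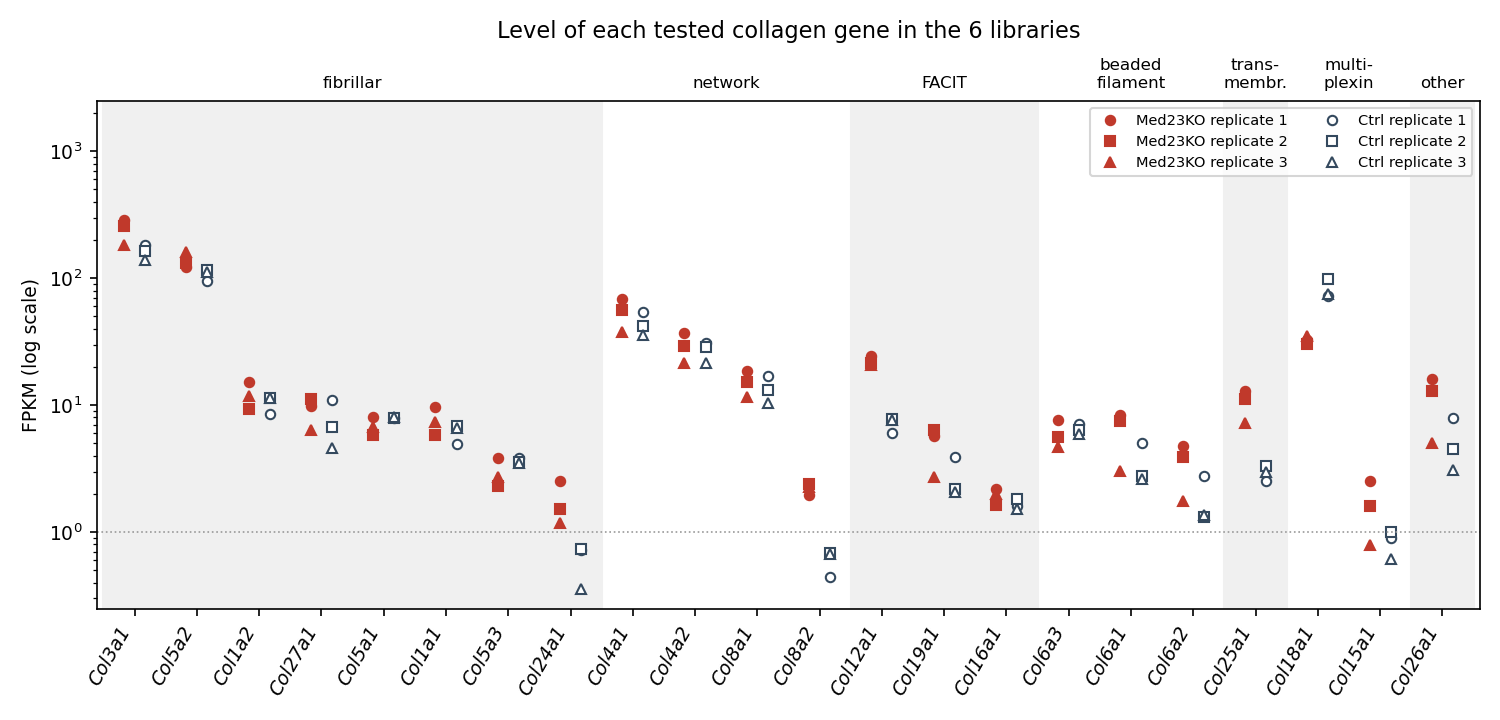
FPKM (log scale) of the 22 tested collagen genes by class, with Med23KO replicates filled and to the left and Ctrl replicates open and to the right; the dotted line is 1 FPKM. Levels run from Col3a1, at 138 FPKM or more in every library, to Col24a1, Col8a2 and Col15a1 near 1 FPKM, and the Col12a1, Col25a1, Col8a2 and Col18a1 groups do not overlap.

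Promoter windows were taken from a table of RefSeq starts (GRCm38.p6), from 250 bases before to 50 bases after each, in which 35 of the 44 genes were matched. Not used here were Col12a1, Col1a1, Col2a1, Col4a3, Col5a2, Col9a3, Col14a1, Col22a1 and Col26a1. The windows of 3 of the called genes are shown so that the genes that rose can be set beside the one that fell. The Col25a1 window lies inside the GENCODE span given above, downstream of the start of that span, so its start is an internal one. Capitals mark letters searched on both strands. The TATA box was searched as TATAAA. The CCAAT box was searched by the letters of its name. The GC box was searched as GGGCGG. The motif of EGR factors was searched as GCGNGGGCG, which can overlap a GC box.
Col25a1, chr3:130180595-130180894, plus strand: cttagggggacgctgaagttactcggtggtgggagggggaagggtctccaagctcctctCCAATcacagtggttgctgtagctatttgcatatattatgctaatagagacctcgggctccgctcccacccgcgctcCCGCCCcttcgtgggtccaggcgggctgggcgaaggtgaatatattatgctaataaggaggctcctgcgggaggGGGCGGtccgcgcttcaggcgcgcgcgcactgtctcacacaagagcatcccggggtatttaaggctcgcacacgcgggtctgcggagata
Col8a2, chr4:126286544-126286843, plus strand: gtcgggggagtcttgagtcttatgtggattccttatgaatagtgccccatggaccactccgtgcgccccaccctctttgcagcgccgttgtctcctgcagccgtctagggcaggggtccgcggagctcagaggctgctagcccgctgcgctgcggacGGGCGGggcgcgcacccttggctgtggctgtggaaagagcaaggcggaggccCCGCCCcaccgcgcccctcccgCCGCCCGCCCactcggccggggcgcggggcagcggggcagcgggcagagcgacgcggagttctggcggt
Col18a1, upstream start, chr10:77166481-77166780, minus strand: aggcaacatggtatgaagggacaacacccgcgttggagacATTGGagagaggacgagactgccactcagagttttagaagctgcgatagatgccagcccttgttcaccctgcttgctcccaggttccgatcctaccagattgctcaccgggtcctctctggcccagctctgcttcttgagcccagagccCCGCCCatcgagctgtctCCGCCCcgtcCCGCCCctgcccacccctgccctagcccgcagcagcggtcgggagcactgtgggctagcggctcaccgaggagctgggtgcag
Col18a1, internal start, chr10:77113656-77113955, minus strand: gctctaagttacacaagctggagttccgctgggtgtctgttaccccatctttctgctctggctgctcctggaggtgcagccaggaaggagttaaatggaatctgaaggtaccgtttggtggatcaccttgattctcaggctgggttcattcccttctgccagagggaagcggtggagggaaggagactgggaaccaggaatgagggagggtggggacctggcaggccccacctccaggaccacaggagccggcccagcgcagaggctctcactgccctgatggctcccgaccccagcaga
The Col18a1 windows differ: the upstream one holds 3 GC boxes and 1 CCAAT box, and the internal one none of the 4 motifs. The FPKM of the gene sums transcripts from both starts, so that their shares are unknown. Over all 38 collagen windows, 60.5% held a GC box, beside 35.7% of 32851 windows of all genes, 34.2% a CCAAT box beside 37.4%, 13.2% a TATA box beside 13.6%, and 7.89% an EGR motif beside 5.55%. The EGR share is 3 windows, those of Col4a1, Col4a2 and Col8a1, and the Col4a1 and Col4a2 matches are 1 site in bases that both windows share. A match is a match of letters and was not tested for use in these cells.

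Fibrillar collagens made up most of the collagen transcripts in each library, and none of the 8 tested fibrillar genes was called in the main fit. With the replicate number as a factor, Col3a1, Col5a2 and Col24a1 were called higher (limma adjusted p = 0.00365, 0.0185 and 0.0263). Col3a1, the chain of type III collagen of elastic connective tissue, was the most abundant collagen gene (ENSMUSG00000026043.18, chromosome 1, positions 45311538 to 45349706, plus strand). Its levels were 286, 256 and 183 FPKM in Med23KO replicates 1, 2 and 3, against 182, 164 and 138 FPKM in Ctrl replicates 1, 2 and 3. The groups met without overlapping, with Med23KO replicate 3 beside Ctrl replicate 1. The log2 fold change of 0.57 (SE 0.18) did not pass (limma adjusted p = 0.14), but passed without Med23KO replicate 3 (adjusted p = 0.0151). The authors' deposited table calls it higher (q = 0.000695). Col5a2, a chain of type V collagen, which sets fibril width, had 123, 131 and 159.8 FPKM in Med23KO libraries, against 95.4, 116 and 112 FPKM in Ctrl libraries (limma adjusted p = 0.19). Its Med23KO libraries were above the Ctrl libraries, with replicate 3 the highest, unlike Col3a1.

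The chains that join Col5a2 in type V collagen had lower levels and negative log2 fold changes. Col5a1 averaged 6.86 ± 1.12 FPKM in Med23KO and 8.04 ± 0.0861 FPKM in Ctrl, and Col5a3 2.95 ± 0.787 FPKM in Med23KO and 3.65 ± 0.174 FPKM in Ctrl (SD, n = 3 each), neither past the test. The ratio of Col5a2 to Col5a1 was 15.3 to 24.0 in Med23KO libraries and 11.95 to 14.5 in Ctrl libraries. The type I collagen chain genes, the main chains of tendon and bone, were minor in these cells. Col1a2 had 15.2, 9.35 and 11.7 FPKM in Med23KO libraries, against 8.53, 11.3 and 11.3 FPKM in Ctrl libraries, and Col1a1 had 9.70, 5.83 and 7.38 FPKM in Med23KO libraries, against 4.93, 6.82 and 6.58 FPKM in Ctrl libraries. Both overlapped between the groups (limma adjusted p = 0.647 and 0.513).

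Of the rarer fibrillar genes, Col27a1 overlapped between the groups, at 9.82, 11.3 and 6.37 FPKM in Med23KO libraries and 11.04, 6.68 and 4.59 FPKM in Ctrl libraries. Col24a1 did not overlap, at 2.54, 1.51 and 1.18 FPKM in Med23KO libraries and 0.721, 0.738 and 0.354 FPKM in Ctrl libraries, and missed the threshold (log2 fold change 0.75, limma adjusted p = 0.118). It was called without Med23KO replicate 3 (adjusted p = 0.0446). Over the 22 tested members, the Med23KO libraries lay all above the Ctrl libraries in 6 (Col3a1, Col5a2, Col24a1, Col8a2, Col12a1 and Col25a1) and all below in 1 (Col18a1). These are 27.3% and 4.55%, beside 10% and 14.7% of all tested genes (24.7% in either direction).

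Type IV collagen, the core of the basement membrane, was represented by its Col4a1 and Col4a2 chains, and neither was called in the main fit. With the replicate number as a factor, Col4a1 was called higher (limma adjusted p = 0.0457) and Col4a2 was not. Col4a1 had 68.7, 56.1 and 37.6 FPKM in Med23KO replicates 1, 2 and 3, against 54.4, 41.7 and 35.4 FPKM in Ctrl replicates 1, 2 and 3 (log2 fold change 0.28, limma adjusted p = 0.587). Col4a2 had 37.0, 29.0 and 21.3 FPKM in Med23KO libraries and 31.0, 28.5 and 21.4 FPKM in Ctrl libraries (log2 fold change 0.09, limma adjusted p = 0.877). In both genes replicate 1 was the highest and replicate 3 the lowest library of its group. The ratio of Col4a1 to Col4a2 was 1.76 to 1.93 in Med23KO libraries and 1.46 to 1.75 in Ctrl libraries. Both genes start head to head on chromosome 8, where their annotated first exons overlap by 22 bases on opposite strands. Their RefSeq windows share 78 bases, which are shown because both genes are read outward from them, in opposite directions. Capitals mark an EGR motif overlapping a GC box.
Col4a1 and Col4a2 shared stretch, chr8:11312777-11312854, plus strand: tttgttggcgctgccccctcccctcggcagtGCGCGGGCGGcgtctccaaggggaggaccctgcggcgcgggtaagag
Of the other type IV chains, Col4a5 averaged 0.382 ± 0.0707 FPKM in Med23KO and 0.459 ± 0.25 FPKM in Ctrl (SD, n = 3 each), and Col4a3, Col4a4 and Col4a6 stayed under 0.15 FPKM.

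**Figure D4:**
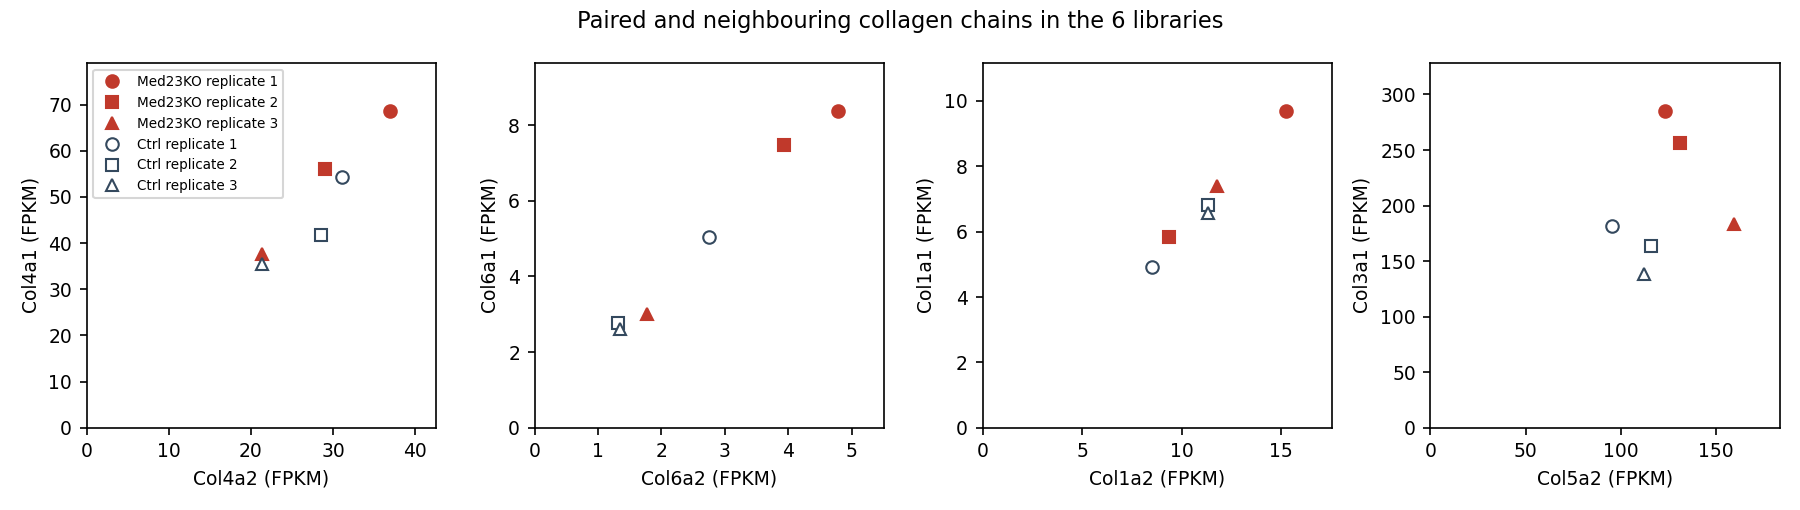
FPKM of collagen chains that share a protein or lie side by side in the genome, 1 point per library (filled, Med23KO; open, Ctrl; the symbol gives the replicate). Libraries high in Col4a2, Col6a2 or Col1a2 were also high in the partner chain, while Col3a1 and Col5a2 are ordered differently, with Med23KO replicate 3 highest in Col5a2 (159.8 FPKM) and lowest of its group in Col3a1 (183 FPKM).

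Type VI collagen forms beaded filaments around cells from a Col6a1, a Col6a2 and a Col6a3 chain, and in mouse its loss impairs muscle stem cells. Col6a1 had 8.38, 7.48 and 3.01 FPKM in Med23KO replicates 1, 2 and 3, against 5.05, 2.78 and 2.61 FPKM in Ctrl replicates 1, 2 and 3. Col6a2 had 4.79, 3.93 and 1.77 FPKM in Med23KO libraries and 2.75, 1.32 and 1.35 FPKM in Ctrl libraries. In both genes Med23KO replicate 3 lay within the Ctrl range, and neither was called (log2 fold change 0.65 each, limma adjusted p = 0.362 and 0.307). Without that library both were called (adjusted p = 0.033 and 0.0447). Col6a3 did not follow them, at 7.63, 5.63 and 4.71 FPKM in Med23KO libraries and 7.10, 6.38 and 5.91 FPKM in Ctrl libraries (log2 fold change -0.11, limma adjusted p = 0.779). The ratio of Col6a1 to Col6a2 stayed between 1.70 and 2.11 in all 6 libraries, while that of Col6a3 to Col6a1 was 0.753 to 1.56 in Med23KO libraries and 1.40 to 2.30 in Ctrl libraries. Col6a4, Col6a5 and Col6a6 were at 0 or under 0.03 FPKM in every library.

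Some members lie close together on a chromosome. Col18a1 lies 326 kb from Col6a1, which lies 85.2 kb from Col6a2, all on the minus strand of chromosome 10, and Col18a1 fell while Col6a1 and Col6a2 had log2 fold changes of 0.65. Col3a1 and Col5a2 lie tail to tail on chromosome 1, 24.6 kb apart, and had log2 fold changes of 0.57 and 0.35. Col12a1, Col25a1 and Col8a2 lie on chromosomes 9, 3 and 4.

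The remaining tested member was Col26a1, a small collagen-like chain outside these classes, with 15.96, 12.9 and 4.99 FPKM in Med23KO libraries and 7.99, 4.54 and 3.08 FPKM in Ctrl libraries. The groups overlapped through Med23KO replicate 3 and Ctrl replicate 1 (log2 fold change 0.93, limma adjusted p = 0.284), and without Med23KO replicate 3 it was called (adjusted p = 0.0297). The 22 members under the filter had at most 1.47 FPKM in any library, and 20 of them had a mean under 0.5 FPKM. Besides those named above they were the cartilage genes Col2a1, Col11a1, Col11a2, Col9a1, Col9a2 and Col10a1, the FACIT genes Col14a1, Col20a1 and Col22a1 (a gene of the muscle-tendon junction), the anchoring fibril gene Col7a1, and Col28a1. With Col9a1, listed at 0 throughout, 7 genes had a 0 in at least 1 library. Among these untested members, all Med23KO libraries lay below all Ctrl libraries in Col14a1 and Col4a6. They lay all above in Col9a3, Col11a1, Col4a3 and Col4a4. At these low levels the differences were not tested.

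Summed over the 44 genes, collagen transcripts came to 706, 633 and 539 FPKM in Med23KO replicates 1, 2 and 3, against 531, 534 and 458 FPKM in Ctrl replicates 1, 2 and 3. The groups did not overlap but met at Med23KO replicate 3 and Ctrl replicate 2. The share of the sum by class also differed between the groups. Multiplexins, almost all Col18a1, were 4.94% to 6.69% of the sum in Med23KO libraries and 13.7% to 18.7% in Ctrl libraries. FACITs, of which Col12a1 was the most abundant in every library, were 4.79% to 4.92% in Med23KO libraries and 2.32% to 2.55% in Ctrl libraries, and fibrillar chains 65.1% to 70.5% in Med23KO libraries and 59.3% to 62.3% in Ctrl libraries. Within a group the libraries differed in common: of the 22 tested members, Med23KO replicate 1 was the highest Med23KO library in 17 and replicate 3 the lowest in 14, and Ctrl replicate 3 was the lowest Ctrl library in 13. The median member deviated from the Ctrl mean by 0.63, 0.44 and 0.02 (log2) in Med23KO replicates 1, 2 and 3, and by 0.09, 0.06 and -0.15 in Ctrl replicates 1, 2 and 3, which puts Med23KO replicate 3 between the Ctrl libraries.

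**Figure D5:**
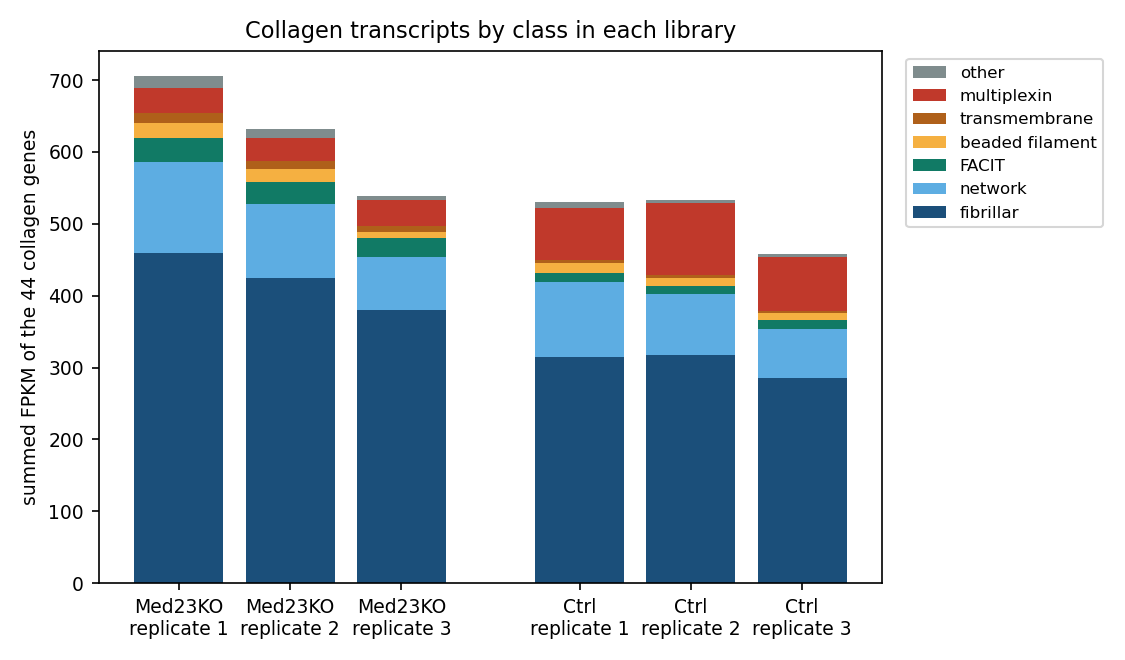
Summed FPKM of the 44 collagen genes in each library, stacked by class, Med23KO left and Ctrl right. The fibrillar part is the largest everywhere, and the multiplexin part is 31.9 to 36.0 FPKM in Med23KO libraries and 72.9 to 99.9 FPKM in Ctrl libraries.

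The genes listed for collagen chain modification and folding in the endoplasmic reticulum had 0 calls by limma among the 19 tested, beside 2.91% of all tested genes. The median log2 fold change was 0.07, with 15 above 0. All Med23KO libraries lay above all Ctrl libraries in 5, P4ha1, Plod2, P3h2, Fkbp14 and Tmem38b, beside 10% of all tested genes. These 5 were also the ones with an unadjusted limma p under 0.05, where 8.84% of all tested genes were higher. The nearest to the threshold were P3h2, a prolyl 3-hydroxylase gene, with 6.20, 9.53 and 8.36 FPKM in Med23KO libraries and 4.71, 4.24 and 4.10 FPKM in Ctrl libraries (adjusted p = 0.0565), and Tmem38b, an endoplasmic reticulum ion channel gene, with 10.6, 10.7 and 11.5 FPKM in Med23KO libraries and 8.10, 5.93 and 6.86 FPKM in Ctrl libraries (adjusted p = 0.0581). Serpinh1, the collagen chaperone HSP47, averaged 344 ± 76.2 FPKM in Med23KO and 299 ± 45.0 FPKM in Ctrl (SD, n = 3 each). From this list the authors' deposited table called P4ha1 (Cuffdiff q = 0.0305), Plod2, P3h2 and Tmem38b (q = 0.000695 each) higher, beside 8.34% of all tested genes.

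Among the genes of propeptide cleavage and cross-linking, 1 of 9 tested fell and 0 rose, beside 1.42% and 1.49% of all tested genes. Adamts14, a procollagen N-proteinase gene, had 9.33, 9.22 and 8.53 FPKM in Med23KO libraries, against 22.2, 16.6 and 14.0 FPKM in Ctrl libraries (log2 fold change -0.87, limma adjusted p = 0.0385), a call lost in 5 of the 6 fits that left out a library. All Med23KO libraries lay below all Ctrl libraries in 2 of the tested genes, Adamts14 and Pcolce2, beside 14.7% of all tested genes. Pcolce2 had 3.90, 3.69 and 7.24 FPKM in Med23KO libraries and 9.29, 16.4 and 13.3 FPKM in Ctrl libraries. Its log2 fold change of -1.26 just missed the threshold (limma adjusted p = 0.056). Lox, which cross-links fibrils, averaged 21.6 ± 11.2 FPKM in Med23KO and 18.5 ± 8.22 FPKM in Ctrl (SD, n = 3 each).

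Of 6 tested receptors and uptake genes, Adgrg1 alone was called, and it was lower, beside 1.42% of all tested genes. It encodes GPR56, an adhesion receptor for which type III collagen is a ligand in mouse brain, and had 3.99, 2.85 and 3.19 FPKM in Med23KO libraries, against 7.57, 7.98 and 6.09 FPKM in Ctrl libraries (log2 fold change -0.92, limma adjusted p = 0.0275, lost in 5 of the 6 fits that left out a library). The discoidin receptor gene Ddr1 averaged 106 ± 35.7 FPKM in Med23KO and 71.9 ± 22.8 FPKM in Ctrl, and Ddr2 averaged 30.6 ± 1.97 FPKM in Med23KO and 34.2 ± 4.78 FPKM in Ctrl (SD, n = 3 each). The collagen uptake receptor gene Mrc2 had 45.3, 44.7 and 20.7 FPKM in Med23KO libraries and 28.7, 21.6 and 17.9 FPKM in Ctrl libraries, with overlap. Itga1 was at 1.11 to 1.66 FPKM in Med23KO libraries and 0.784 to 1.51 FPKM in Ctrl libraries. Itga2 had a mean under the filter, and Itga11 and Calcr, the calcitonin receptor gene through which type V collagen acts on quiescent mouse muscle stem cells, stayed at or under 0.209 FPKM.

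Of the small leucine-rich proteoglycans and other fibril-binding proteins, 5 of 12 were tested and 0 passed, with a median log2 fold change of 0.49 (at an unadjusted limma p under 0.05, 4 were higher, beside 8.84% of all tested genes). Ogn had 3.12, 3.54 and 3.63 FPKM in Med23KO libraries and 1.84, 1.32 and 2.27 FPKM in Ctrl libraries (limma adjusted p = 0.0725). Dcn, the decorin gene, had 10.3, 8.57 and 9.58 FPKM in Med23KO libraries and 7.30, 5.73 and 5.40 FPKM in Ctrl libraries (limma adjusted p = 0.0764). Fn1 alone of the 5 had a negative log2 fold change (-0.72, limma adjusted p = 0.362). It averaged 54.3 FPKM in Med23KO and 93.2 FPKM in Ctrl, with overlap. The authors' deposited table called Fn1 lower and Dcn and Bgn higher (Cuffdiff q = 0.000695, 0.0053 and 0.00874).

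The authors' deposited Cuffdiff table made more calls among the same 22 genes, 11 higher and 1 lower (q under 0.05), beside 8.34% and 7.27% of all tested genes in that table. The 8 rises it added were Col3a1, Col5a2, Col24a1, Col19a1, Col6a1, Col6a2, Col15a1 and Col26a1. Of these, Col19a1, Col6a1, Col6a2, Col15a1 and Col26a1 overlapped between the groups in the library values.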

How the data were processed

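RNA was measured in 6 libraries of sorted, cultured mouse muscle stem cells. Per the labels' protocols, poly(A) RNA was made into strand-specific libraries. The tools named in the submitters' processing notes are cutadapt, FastQC, Cuffdiff and STAR, with the mm10 build. Versions, annotation and the strand setting of counting: not given in the sources used here. The authors deposited FPKM per library and per group, and Cuffdiff p-values and q-values, per the file headers. All 6 library columns mapped to a sample by name. Of 12368 rows with an Ensembl identifier alone, 12316 matched a symbol.

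No count model was fitted to FPKM. Depth is unknown: of genes under 0.1 FPKM in a pair of libraries, at most 23.1% shared 1 ratio (tolerance 0.03, log2), so that single-fragment steps could not be recovered. Sums of FPKM were 599738 to 675095 in Med23KO and 697886 to 746973 in Ctrl, of which the noncoding RNA Rmrp was 173041 to 205244 in Med23KO and 225416 to 239590 in Ctrl. The 12336 genes that averaged 1 FPKM or more were tested on log2(FPKM + 1) with limma 3.58.1 in R 4.3.3 (mean-variance trend, genotype as the single factor, two-sided, Benjamini-Hochberg over all tested genes, threshold 0.05). Coordinates are from GENCODE vM21. On data simulated for this comparison over 12336 genes, 36.5%, 73.2% and 94.3% of genes changed 1.5-fold, 2-fold and 4-fold were recovered. There were 9 false among 143 calls and 0 calls without change. These figures describe the simulated data only and set no error rate for the calls reported here. The real libraries numbered 1 and 3 deviated together between the groups (correlation 0.437 and 0.563). Leaving out a library moved the real higher calls from 184 to between 3 and 749. Recovery was not split by level, so the shares cannot be applied to low genes such as Col8a2.

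The members, the companion lists and the marker lists were chosen with earlier results of these data known. Every collagen row was accounted for, with library values for called genes, the 10 most abundant, Col12a1, Col18a1 and Col3a1. From each companion list the called genes, or else the 2 with the smallest adjusted p, were named, and so were Med23, Calcr, Serpinh1, Lox, Ddr1, Ddr2, Itga1, Itga2, Itga11 and Mrc2. Other names and the chain ratios were chosen after their values were seen. Alternatives covered the pseudocount, the filter, scaling, the variance model, library weights, a replicate block, each library left out and the authors' q-values. Genes listed for tenocytes (2 of 3 tested lower, beside 1.42% of all tested genes) were also read. So were markers of endothelial cells (0 of 4 called), pericytes (0 of 1), Schwann cells (0 of 1), leukocytes (0 of 2) and muscle stem cells (0 of 7).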

Additional observations from a re-analysis of the deposited data

How the results depend on the processing

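The count of collagen genes called higher (3 of 22) was 9 with library weights and 9 with the replicate number as a replicate block, 11 by the authors' q-values, and 1 to 9 over the fits that left out a library: 9 without Med23KO replicate 3 and 1, Col12a1, without any of the other libraries. The calls over all 12336 genes moved too: 184 were higher as reported, 850 with library weights, 1180 with the block, 749 without Med23KO replicate 3 and 3 to 47 without another library. The count called lower was 1 in all settings run but that without Med23KO replicate 2, where it was 0 by limma (Col18a1 had an adjusted p of 0.0792). The median log2 fold change of 0.33 ran from 0.24 to 0.52 without single libraries and was 0.087 with no filter on low values, where 43 members enter. Another pseudocount, no filter, quantile normalization, median scaling and no trend moved none of the 22 genes across the threshold, nor did a mean of at least 5 FPKM for the 14 genes left. Sign changes were seen in genes not called: Col4a2 (-0.10 to 0.29 over the fits without 1 library), Col8a1 (-0.014 to 0.31) and Col6a3 (-0.27 to 0.024, and 0.0088 with library weights). The cause of these changes was not tested. The main fit did not pair the libraries by replicate number. Same-numbered libraries deviated together for numbers 1 and 3 (correlation 0.437 and 0.563). The value for number 2 (-0.0158) cannot decide the question, since Ctrl replicate 2 was near 0 with every Med23KO library (-0.0353 to 0.0396). Med23KO replicate 2 correlated best with Ctrl replicate 1 (0.337). A further measure did set same-numbered libraries apart: of genes under 0.1 FPKM in both libraries, 23.1%, 16.3% and 8.90% shared 1 ratio in the pairs numbered 1, 2 and 3, and at most 5.26% in any other pair. This is a hint from the data that the numbers mark something shared, which the labels do not name. The block added Col3a1, Col5a2, Col24a1, Col4a1, Col6a2 and Col26a1 to the calls. Depth is unknown, so the members near 0 FPKM carry no limit of detection. Median scaling moved the calls over all genes to 363 higher and 205 lower, from 184 and 175.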
